A study of Mus musculus with 9 samples.

Results

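The comparison described here set the lungs of 3 mice given an adenovirus that carried mouse IL-4d2 (AdV-IL4d2) against the lungs of 3 mice given the control virus AdV-NULL, which carried no cytokine gene. The 6 arrays were taken by their titles from the 9 arrays of the study, and the other 3 arrays came from mice given a virus with mouse IL-4 (AdV-IL4). All mice were female C57BL/6 animals aged 14 weeks, and lung RNA was taken 14 days after replication-deficient virus was given into the trachea, so the infection was shared by all 3 groups. The promoter that drove the cytokine in the vector and the dose of virus are not given in the labels. The comparison asks what the splice variant changed in the infected lung, and the IL-4 arrays serve to show where its effect was shared or differed.

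IL-4 is the cytokine that directs type 2 immunity: through the IL-4 receptor and the transcription factor STAT6 it makes B cells switch antibody class, turns macrophages to the alternatively activated state and makes airway epithelium produce mucus. IL-4d2 is the natural form of IL-4 made when the second exon is skipped in splicing. Heat shock proteins are chaperones that fold other proteins and are transcribed through heat shock factor 1 when proteins misfold. Immediate early genes encode short-lived transcription factors and regulators that are transcribed within minutes of a stimulus.

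Each array gave 1 signal intensity per probe set, a group of short probes that reads 1 transcript. All 45037 probe sets other than the array's own controls were tested, and 18193 genes were represented by 1 probe set each. The lung markers Sftpc, Sftpa1, Sftpb, Scgb1a1, Ager, Foxj1 and Cldn5 had signals from 1303 to 54830 on the 6 arrays, and the thymus markers Rag1 and Rag2 stayed at or below 32.7, with Ptcra and Dntt at most 142. The 3′ to 5′ signal ratio of Gapdh, a measure of RNA integrity, was 1.46 ± 0.11 with IL-4d2 and 1.28 ± 0.28 with control virus (mean ± SD of 3 mice, exact two-sided permutation p = 0.4, where 0.1 is the smallest p that 3 against 3 can give). The poly-A controls, bacterial transcripts spiked into the RNA before labelling, had a mean log2 signal of 10.14 ± 0.11 with control virus and 9.87 ± 0.15 with IL-4d2, without overlap (difference −0.27, exact two-sided permutation p = 0.1). Control mouse 1 stood apart in skeletal muscle genes, with a mean log2 signal of 11.12 over the list against 8.52 and 7.25 in the other control mice, and control mouse 2 had the highest mean of the control mice for interferon-gamma and Th1 genes. Where the labels call mice replicates of a group, nothing says more about how they were housed or infected. The p-values of genes below rest on the spread between mice within groups, pooled over all 9 arrays and moderated across probe sets.

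Few transcripts were called between IL-4d2 and the control virus. At an unadjusted limma p under 0.05, 6.37% of genes were higher and 6.02% lower, so few calls with 3 mice per group do not mean that few transcripts changed. Of the genes tested, 75 rose (0.412%) and 28 fell (0.154%), as called by limma with a Benjamini-Hochberg adjusted p under 0.05, and at the level of probe sets 156 rose and 58 fell (0.346% and 0.129%, or 0.475% in either direction). Of the called probe sets, 105 differed at least 2-fold. Of the 103 called genes, 90 were also called with IL-4 against the same control arrays, all 90 in the same direction. Of all 18193 genes, 589 rose and 557 fell with IL-4. Both comparisons use the same 3 control arrays, so a deviation of those arrays moves both the same way. Between IL-4d2 and IL-4 directly, 8 of the 103 were called, beside 158 of all 18193 genes. With IL-4, for example, Jchain, Ccl20, Cxcl9, Spib and C1qa rose by 4.33, 3.72, 2.76, 1.41 and 1.04 on the log2 scale. With IL-4d2, the genes that rose were led by immunoglobulin and plasma cell genes, chemokines and heat shock proteins, and those that fell by immediate early genes. With the arrays scaled to spiked-in hybridisation control transcripts instead, 81 probe sets rose and 15 fell, and scaled to spiked-in poly-A controls 150 rose and 16 fell, so the share of increases went from 72.9% of calls to 84.4% and 90.4%. The counts were 106 and 37, 224 and 60, and 95 and 36 without control mice 1, 2 and 3, and 96 and 31, 80 and 20, and 88 and 25 without IL-4d2 mice 1, 2 and 3. They were 43 and 12 with a variance prior that does not vary with the signal, 221 and 93 with a filter on dim probe sets and 229 and 104 with array weights. All RNA came from lung tissue, so more or fewer cells of a type and more or less RNA per cell cannot be told apart in any result below.

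**Figure D1:**
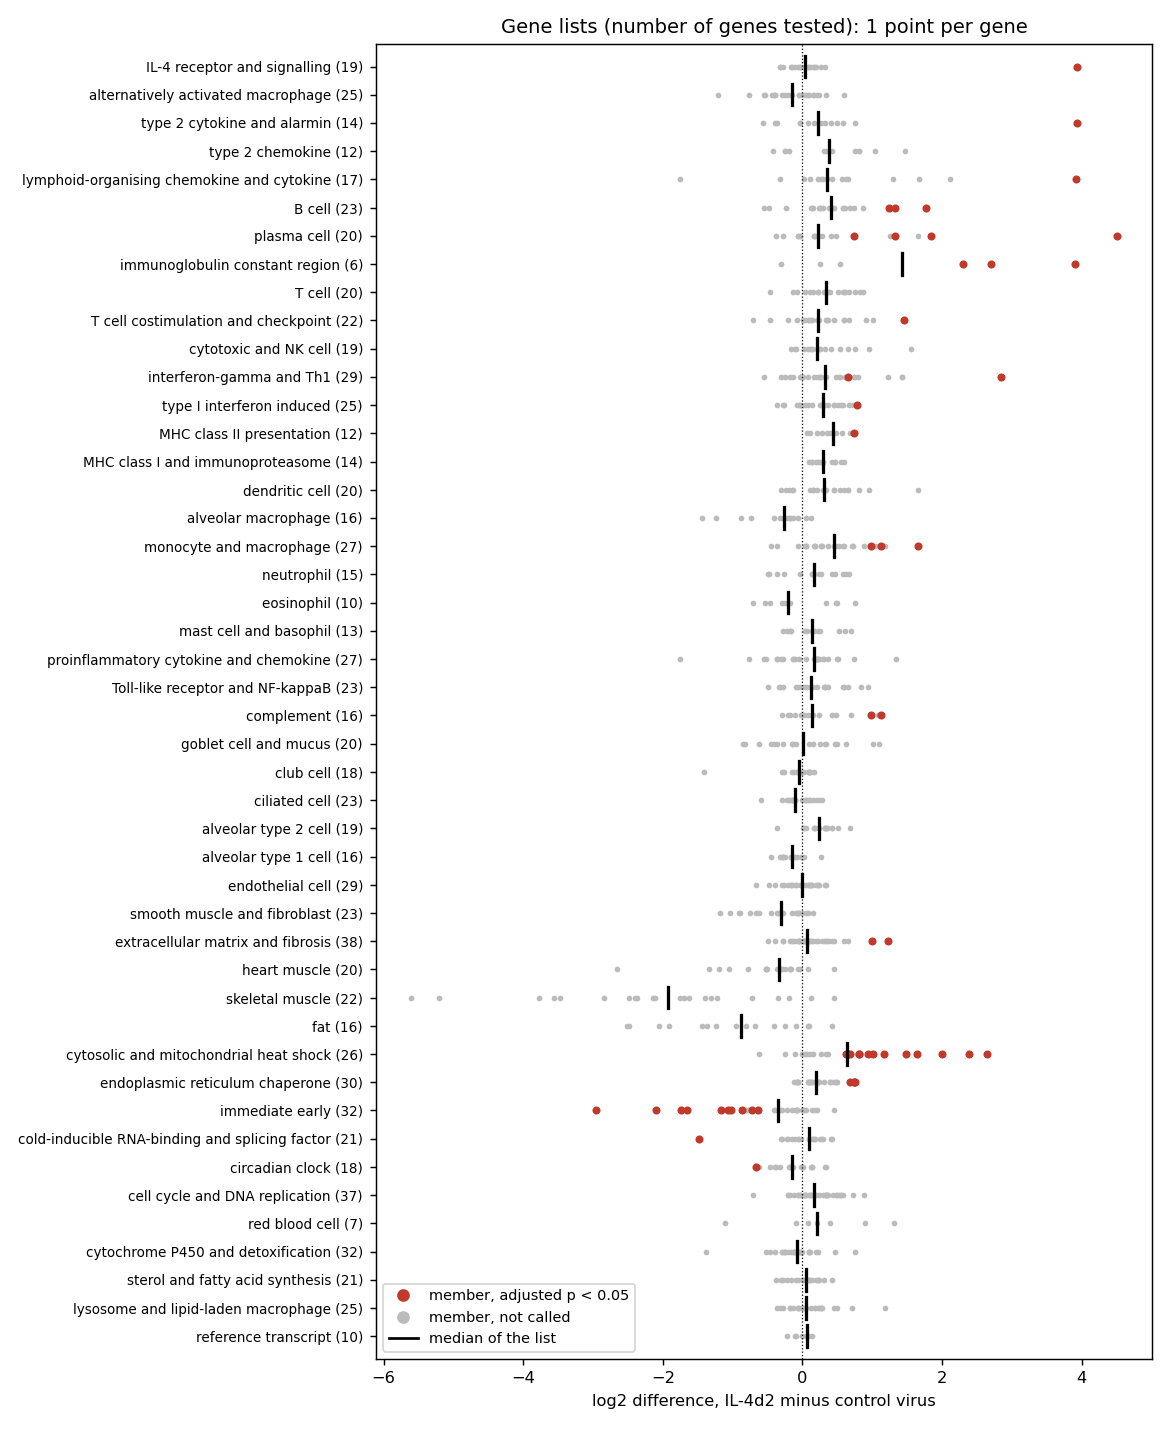
Each row is 1 of 46 gene lists, each point is 1 gene of the list at its log2 difference between IL-4d2 and control virus, red points are genes called by limma, and the black bar is the median of the list. The heat shock list holds 13 called increases with a median of 0.64, and the immediate early list holds 10 called decreases with a median of −0.35.

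Il4 itself was read on the 3 control arrays at signals of 43.1, 15.8 and 71.6 and on the 3 IL-4d2 arrays at 1172, 944 and 499. All 3 IL-4d2 mice lay far above all control mice, and the control signals were near those of trpn, a bacterial transcript that serves as a blank and reached up to 55.8. The log2 difference was 3.93 ± 0.36 (SE, n = 3 each, limma adjusted p = 0.000253), and it came to between 3.54 and 4.28 when any 1 of the 6 arrays was left out. In the IL-4 mice Il4 read 379, 301 and 335, below all IL-4d2 mice. The difference between IL-4d2 and IL-4 was 1.25 ± 0.36 and was not called (limma adjusted p = 0.185). Which part of the transcript the probe set reads was not examined here, so the signal does not separate IL-4d2 from full-length IL-4. Il4ra, the chain of the receptor that binds IL-4, had a log2 difference of 0.27 ± 0.12 (adjusted p = 0.492), and Stat6, its transcription factor, one of 0.17 ± 0.07 (adjusted p = 0.447). Of the 19 tested genes of IL-4 reception and signalling, Il4 was the only one called, and the median of the list was 0.04 against 0.00 over all genes.

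Several of the largest increases were in genes of antibody-secreting cells. Jchain, which joins IgA and IgM into polymers, had signals of 452, 588 and 372 in control mice and 9134, 19090 and 7369 in IL-4d2 mice. Every IL-4d2 mouse was more than 10-fold above every control mouse, with mouse 2 the highest. The log2 difference was 4.51 ± 0.34 (adjusted p = 8.60e-05), or 22.8-fold. Igha, the constant region of IgA, went from 1762, 1440 and 638 to 13440, 26630 and 15630. Its groups did not overlap, and mouse 2 was again the highest (log2 difference 3.90 ± 0.34, adjusted p = 0.000168). Ighm, the constant region of IgM, went from 839, 1614 and 860 to 4402, 12260 and 6115, without overlap (2.70 ± 0.36, adjusted p = 0.00577). Other probe sets assigned to Ighm gave log2 differences from −0.05 to 7.29, and immunoglobulin probe sets can share sequence between genes, so a single size for IgM is uncertain. Ighg3, the constant region of IgG3, rose by 2.30 ± 0.30 on the log2 scale (adjusted p = 0.00452), but its other probe sets ranged from 0.19 to 0.77 and none of those was called. Of the 6 tested constant region genes 3 rose, beside 0.412% of all genes. With a variance prior that does not vary with the signal, 1 was called. The single gene with a negative difference lay below all controls in every IL-4d2 mouse, beside 9.54% of all genes. Another 10 genes of the list were not analysed here.

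Further genes of the B cell and plasma cell lists were called as well. Mzb1, a chaperone of antibody assembly in the endoplasmic reticulum, had signals of 415, 412 and 455 in control mice and 1278, 2417 and 1269 in IL-4d2 mice. The groups did not overlap (log2 difference 1.85 ± 0.22, adjusted p = 0.00202). Spib, a transcription factor of B cells and of the epithelium over lymphoid follicles, went from 342, 306 and 306 to 1597, 996 and 882, with mouse 1 the highest of the treated mice (1.77 ± 0.22, adjusted p = 0.00351). Pou2af1, a coactivator that B cells need to form germinal centres, rose by 1.33 ± 0.20 (adjusted p = 0.0119), and the call was lost without control mouse 3, where the difference was 1.32. Cd72, a B cell surface receptor, rose by 1.25 ± 0.16, and Ikzf3, the transcription factor Aiolos of lymphocytes, by 1.15 ± 0.15. Other probe sets of Ikzf3 gave 0.25 and 0.57 and were not called. Of the 20 tested plasma cell genes 4 rose (Jchain, Mzb1, Pou2af1 and the chaperone gene Creld2), and of the 23 B cell genes 3 did (Spib, Pou2af1 and Cd72), beside 0.412% of all genes. Pou2af1 counts in both lists. Without control mouse 2 the B cell count was 6. With a variance prior that does not vary with the signal, 0 B cell genes and 1 plasma cell gene were called. Most genes of both lists lay high, with medians of 0.41 and 0.23 for B cell and plasma cell genes. In every IL-4d2 mouse 10 of 23 B cell and 9 of 20 plasma cell genes lay above all controls, against 9.35% of all genes. Below all controls lay 1 B cell and 2 plasma cell genes, against 9.54%, and 3 and 5 genes had negative differences. Tent5c, which lengthens the tails of immunoglobulin transcripts, rose by 0.58 ± 0.10 (adjusted p = 0.0363), a call lost in each fit that left out 1 array.

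**Figure D2:**
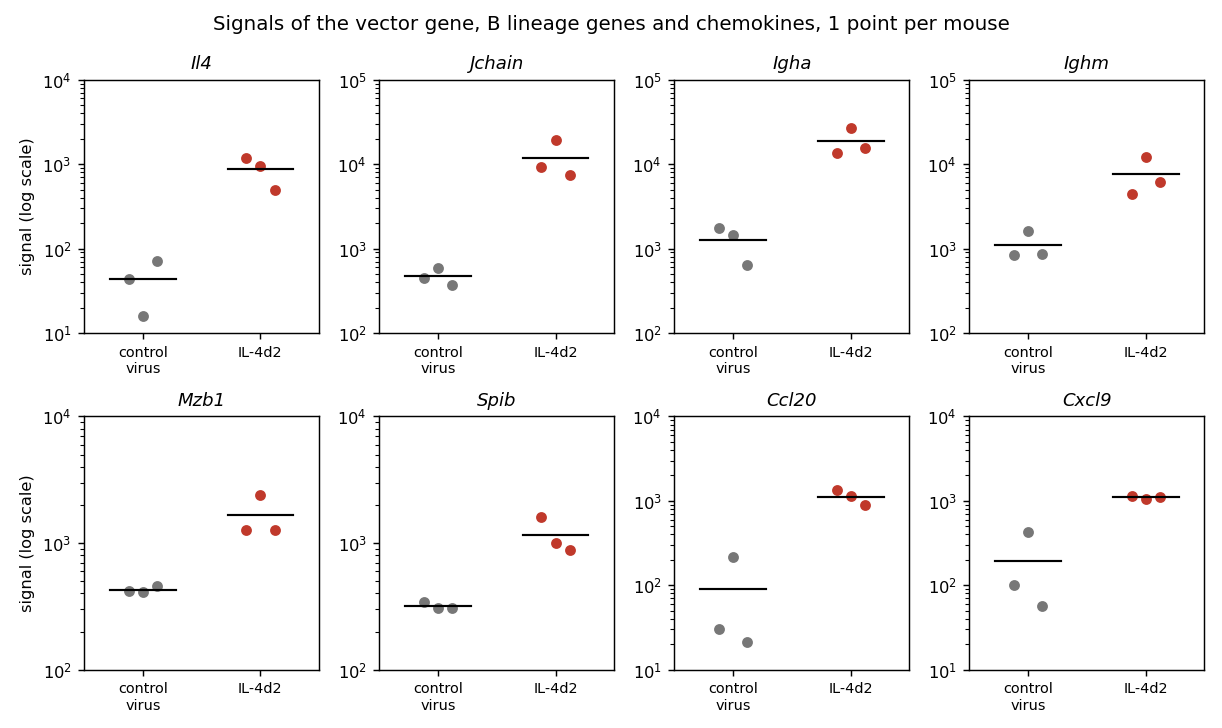
Signals on a log axis for Il4, 5 genes of B cells and antibody secretion and 2 chemokines, with 1 point per mouse and a line at the mean of each group of 3. The groups are apart in every panel, and control mouse 2 (the middle grey point) is the highest control for Ccl20, at 218, and for Cxcl9, at 425.

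Among chemokines, Ccl20 and Cxcl9 stood out. Ccl20, the ligand that draws CCR6-bearing B cells, T cells and dendritic cells to epithelium, had signals of 30.3, 218 and 21.1 in control mice and 1342, 1140 and 883 in IL-4d2 mice. The groups were far apart, with control mouse 2 nearest to the treated mice. The log2 difference was 3.92 ± 0.51 (adjusted p = 0.00500) and became 4.76 without control mouse 2. Cxcl9, an interferon-gamma-induced ligand of CXCR3 on T cells, went from 101, 425 and 56.7 to 1136, 1041 and 1118. All treated mice were close to each other and above all controls (2.84 ± 0.51, adjusted p = 0.0351). That call did not hold in 5 of the 6 fits that left out 1 array, and without control mouse 2 the difference was 3.59. Cxcl16, the ligand of CXCR6, rose by 0.66 ± 0.09 (adjusted p = 0.00577). Other probe sets of Cxcl9 and Cxcl16 gave 1.91 and 0.45 and were not called.

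For T cell and interferon genes, most members lay above the controls without passing the test. No gene of the 20 in the T cell list was called by limma, although 8 had an unadjusted p under 0.05 on the higher side, beside 6.37% of all genes, and the median was 0.34. Ctla4, an inhibitory receptor of regulatory and activated T cells, had signals of 47.5, 93.8 and 88.4 in control mice and 218, 218 and 257 in IL-4d2 mice. These groups did not overlap (log2 difference 1.45 ± 0.25, adjusted p = 0.0273), but the call was kept in only 1 of 6 fits with an array left out, the one without control mouse 2. Of 29 interferon-gamma and Th1 genes 2 rose, Cxcl9 and Cxcl16, beside 0.412% of all genes, and 12 lay above all controls in every IL-4d2 mouse, beside 9.35%. The mean log2 signal of that list was 8.37, 8.90 and 8.46 in control mice and 9.09, 9.01 and 8.98 in IL-4d2 mice, so control mouse 2 was nearest to the treated mice here too. Without control mouse 2, 6 genes of the list were called, and without any other single array 1 was. Oas1a, an antiviral enzyme, rose by 0.78 ± 0.14 (adjusted p = 0.0310), kept its call only without control mouse 2, and was the only one of 25 type I interferon-induced genes called.

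Antigen presentation and macrophage genes mostly lay above the controls, and a few were called. H2-Eb1, a chain of MHC class II, had signals of 5001, 7813 and 5819 in control mice and 10220, 10520 and 9947 in IL-4d2 mice. The treated mice were all above the controls (log2 difference 0.74 ± 0.13, adjusted p = 0.0364). All 12 MHC class II genes had positive differences with a median of 0.44, as did all 14 of MHC class I and the immunoproteasome with a median of 0.29. H2-Eb1 was the only gene of either list to be called by its brightest probe set. In each list 1 uncalled gene had another probe set that was called. For H2-K1 of class I that probe set gave 1.46 ± 0.17 (limma adjusted p = 0.00175), while its others gave 0.53 and 0.54 and were not called. The MHC class II count was 4 without control mouse 2, and 3 with a filter on dim probe sets, with array weights or with the replicate block. It was 0 with only the 6 arrays of both groups and with either scaling to spiked-in controls. With a variance prior that does not vary with the signal it was 0 too. In the monocyte and macrophage list 3 of 27 genes rose, beside 0.412% of all genes, and 5 did without control mouse 2. None of that list was called with a variance prior that does not vary with the signal. Ms4a7, a membrane protein of mature macrophages, went from 221, 398 and 351 to 935, 1076 and 1053 (1.65 ± 0.22, adjusted p = 0.00627). A dimmer probe set of Ms4a7 gave 0.58 and was not called. C1qa and C1qc, subunits of the complement recognition protein C1q that macrophages make, rose by 1.12 ± 0.14 (adjusted p = 0.00395) and 0.98 ± 0.18 (adjusted p = 0.0456). C1qa kept its call in each fit with 1 array left out, while C1qc and H2-Eb1 kept theirs only without control mouse 2. Ly6i, an interferon-induced surface protein of monocytes, rose by 1.95 ± 0.27, and Cd48, an adhesion molecule of leukocytes, by 1.08 ± 0.20 (adjusted p = 0.0456), a call kept only without control mouse 2. No neutrophil gene of 15 was called, and none had an unadjusted p under 0.05. In the alveolar macrophage list, where 0 of 16 were called and 6 had an unadjusted p under 0.05 on the lower side beside 6.02% of all genes, the median was −0.26.

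Among genes of the extracellular matrix, Eln, Lox and Ltbp2 rose. Eln, which encodes elastin, had signals of 922, 703 and 1121 in control mice and 1920, 2297 and 2153 in IL-4d2 mice. All treated mice were above all controls (log2 difference 1.22 ± 0.14, adjusted p = 0.00147). In the IL-4 mice Eln reached 4403, 4586 and 4547, and it was lower with IL-4d2 than with IL-4 by a log2 difference of −1.09 ± 0.14 (limma adjusted p = 0.00658). Lox, the enzyme that crosslinks elastin and collagen, rose by 1.002 ± 0.11 (adjusted p = 0.00106), and Ltbp2, a protein of elastic microfibrils, by 1.01 ± 0.10 (adjusted p = 0.000357). Ltbp2 was also lower than with IL-4 (−0.66 ± 0.10, adjusted p = 0.0127), a call lost without IL-4 mouse 2 or IL-4d2 mouse 1 or 3. Another probe set of Eln gave 0.07 ± 0.68 and the other 2 of Lox gave 0.63 and 0.51, and none of those was called. Eln and Lox were the 2 called members among 38 matrix and fibrosis genes, whose median was 0.06. P4ha1 and P4ha2, which hydroxylate prolines of collagen, rose by 0.66 ± 0.09 and 0.48 ± 0.07 on the log2 scale. Both lost the call without IL-4d2 mouse 2 or 3, and P4ha2 also without control mouse 1.

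Heat shock proteins formed the largest group of increases among the lists. Of 26 tested cytosolic and mitochondrial heat shock genes 13 rose and 0 fell by limma, beside 0.412% and 0.154% of all genes, 1 had an unadjusted p under 0.05 on the lower side, and the median difference was 0.64. Hspa1b, an inducible HSP70, had signals of 2159, 2015 and 2320 in control mice and 12280, 18570 and 11090 in IL-4d2 mice. The control mice were close together and the treated mice all more than 4-fold above them (log2 difference 2.65 ± 0.22, adjusted p = 0.000120). Hspa1a, the neighbouring copy, went from 532, 456 and 521 to 2479, 3372 and 2341, again without overlap (2.39 ± 0.17, adjusted p = 8.04e-05). The copies are nearly identical, so probes may not separate them. Hsph1, the exchange factor HSP110 that recycles HSP70, went from 1654, 1253 and 1460 to 6155, 6019 and 5416 (2.005 ± 0.16, adjusted p = 0.000112).

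Several partners of HSP70 rose as well. Dnajb1, an HSP40 that delivers clients to HSP70, went from 1249, 1233 and 1344 to 4000, 4463 and 3592 (log2 difference 1.64 ± 0.14, adjusted p = 0.000177). Dnaja1, another HSP40, went from 3284, 3321 and 3598 to 9375, 10310 and 9039 (1.49 ± 0.09, adjusted p = 2.97e-05). In both, control mice and treated mice formed tight and separate groups. Stip1, which passes clients from HSP70 to HSP90, rose by 1.16 ± 0.13, and the HSP90 cochaperones Chordc1, Ahsa1 and Fkbp4 by 1.01 ± 0.11, 0.81 ± 0.12 and 0.62 ± 0.10. Hspb1, a small heat shock protein, rose by 0.94 ± 0.14, and Hspe1, the mitochondrial cochaperone HSP10, by 0.81 ± 0.12. The constitutive HSP70 gene Hspa8 and the HSP90 gene Hsp90aa1 rose by 0.69 ± 0.12 (adjusted p = 0.0276) and 0.66 ± 0.12 (adjusted p = 0.0391). Both of those calls were lost in each fit that left out 1 array, although 2 dimmer probe sets of each gene gave larger called differences, 1.32 and 1.10 for Hspa8 and 1.21 and 1.05 for Hsp90aa1. The Hspb1 call was lost when control mouse 3 or IL-4d2 mouse 2 or 3 was left out, that of Hspe1 without control mouse 3, and that of Fkbp4 without control mouse 1 or 3 or IL-4d2 mouse 1 or 3. Outside the list, Cacybp, a binding partner of HSP90, rose by 1.10 ± 0.09 and Ahsa2, a relative of Ahsa1, by 1.22 ± 0.11.

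The heat shock count was lower under other scalings and with any array left out. It was 13 with the signals as deposited, 7 after scaling to the hybridisation controls, 10 after scaling to the poly-A controls, and 5 with a variance prior that does not vary with the signal. Without control mice 1, 2 and 3 it was 10, 11 and 8, and without IL-4d2 mice 1, 2 and 3 it was 10, 10 and 9. Hspa1a, Hspa1b, Hsph1, Dnajb1 and Dnaja1 kept their calls under each alternative. In the IL-4 mice Hspa1b reached 30940, 22380 and 16590. Of the 26 heat shock genes 0 were called by limma between IL-4d2 and IL-4. At an unadjusted p under 0.05, 2 were higher and 6 lower with IL-4d2, beside 1423 higher and 1260 lower of all 18193 genes. For Hspa1b the difference between IL-4d2 and IL-4 was −0.73 ± 0.22 (adjusted p = 0.198), and for Hspa1a −0.88 ± 0.17 (adjusted p = 0.0536).

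Heat shock factor 1 binds repeats of the unit GAA and its complement TTC, and promoters of the list were searched for that pattern. Its part in the increases was not tested. RefSeq promoter windows (GRCm38.p6, 250 bases before to 50 after the start of a gene) were searched for GAANNTTC, which reads the same on both strands. It occurred in the windows of 8 of the 11 called heat shock genes that matched the table (72.7%), of 4 of the 10 other genes of the list (40%) and of 9.04% of all 27025 genes. Of all 32851 windows, some genes having several, 7.86% held it. For 6 of the 8 called genes with a match, a stretch of 60 bases before the start is printed. It runs 5′ to 3′ on the strand of the gene, with the matches in capitals.
Hspa1a (chr17:34972227-34972286, minus strand): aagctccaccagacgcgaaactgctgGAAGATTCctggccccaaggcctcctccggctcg
Hspa1b (chr17:34959309-34959368, minus strand): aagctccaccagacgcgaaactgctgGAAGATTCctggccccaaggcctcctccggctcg
Dnaja1 (chr4:40722318-40722377, plus strand): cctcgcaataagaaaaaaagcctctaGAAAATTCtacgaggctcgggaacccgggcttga
Hspb1 (chr5:135887786-135887845, plus strand): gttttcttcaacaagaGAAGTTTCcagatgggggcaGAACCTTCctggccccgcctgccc
Hspe1 (chr1:55088038-55088097, plus strand): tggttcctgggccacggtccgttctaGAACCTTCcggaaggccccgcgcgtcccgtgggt
Fkbp4 (chr6:128438774-128438833, minus strand): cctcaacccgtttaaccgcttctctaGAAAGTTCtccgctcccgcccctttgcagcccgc

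The stretches of Hspa1a and Hspa1b are the same letter for letter, and their matches begin 104 bases before the start. Hspb1 holds 2 matches, at 117 and 97 bases before its start. Chordc1 and Hsph1 make up the 8, with matches close to or after the start. The identical pair Hspa1a and Hspa1b counts as 2 of the 8. The windows of the called genes Dnajb1, Stip1 and Ahsa1 held no match. A match is a description of these letters and shows no binding.

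Of 30 genes for chaperones and stress responses of the endoplasmic reticulum, where secreted proteins fold, 4 rose, beside 0.412% of all genes. The limma count was 0 after scaling to hybridisation controls, 0 with a variance prior that does not vary with the signal and 1 without IL-4d2 mouse 2. Manf, a secreted stress protein, went from 2754, 3181 and 2723 to 4970, 5061 and 4485, with no overlap (log2 difference 0.74 ± 0.09, adjusted p = 0.00175). Sdf2l1, a cochaperone, rose by 0.75 ± 0.11, Creld2, a disulphide isomerase, by 0.74 ± 0.10, and Hspa5, the HSP70 of that compartment also called BiP, by 0.67 ± 0.11 (adjusted p = 0.0189). The Hspa5 call was kept in only 1 of 6 fits with an array left out, without control mouse 2, and 1 of its other probe sets gave −0.08. Sdf2l1 and Creld2 lost theirs without IL-4d2 mouse 2. Of the 30 genes, 16 lay above all controls in every treated mouse, beside 9.35% of all genes.

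**Figure D3:**
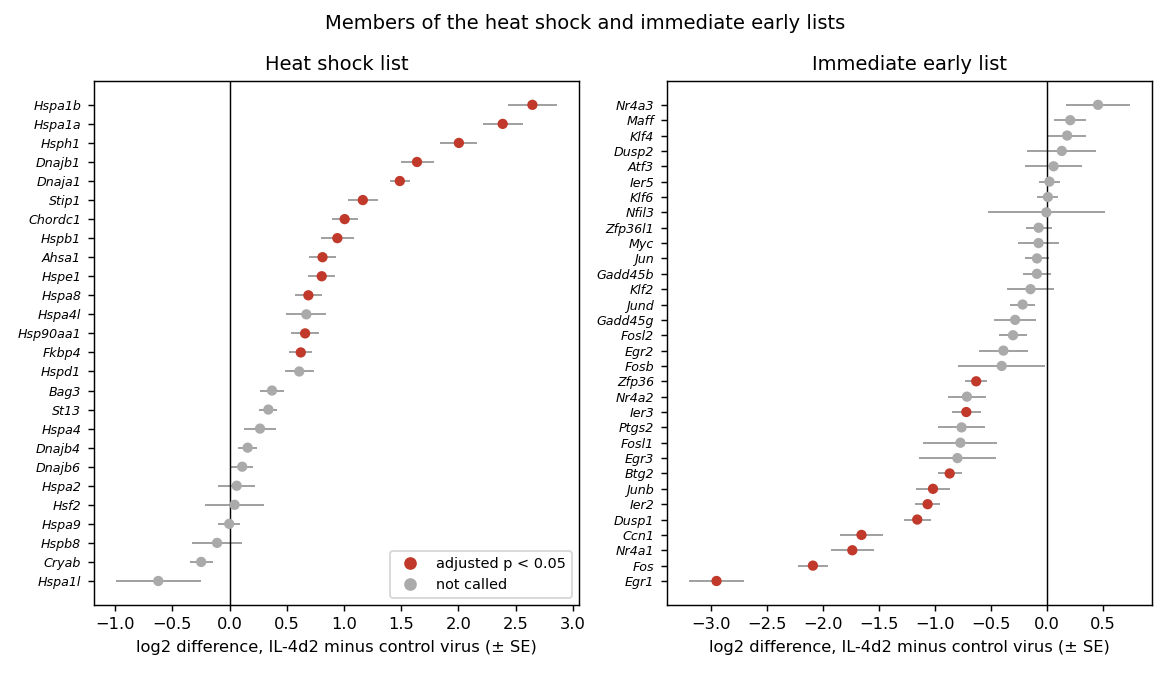
Log2 difference between IL-4d2 and control virus with its SE for every tested gene of the heat shock list (left, 26 genes) and the immediate early list (right, 32 genes), where red marks genes called by limma. Hspa1b is highest on the left at 2.65, and Egr1 is lowest on the right at −2.95.

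Immediate early genes made up the largest group of decreases among the lists. Of 32 tested genes 10 fell and 0 rose by limma, beside 0.154% and 0.412% of all genes, and the median was −0.35. At an unadjusted p under 0.05 the counts were 15 and 0. Egr1, a zinc finger transcription factor, had signals of 4826, 9007 and 9221 in control mice and 1303, 701 and 899 in IL-4d2 mice. Each treated mouse was below each control mouse, and control mouse 1 was the lowest control. The log2 difference was −2.95 ± 0.25 (adjusted p = 0.000135), or 7.75-fold. Fos, a subunit of the transcription factor AP-1, went from 4833, 6949 and 6129 to 1341, 1518 and 1266, with wide separation (−2.09 ± 0.14, adjusted p = 2.97e-05). Nr4a1, an orphan nuclear receptor, went from 2198, 3313 and 4228 to 890, 828 and 1078 (−1.74 ± 0.19, adjusted p = 0.00114). Ccn1, a secreted matricellular protein, went from 5542, 8247 and 9755 to 2666, 2427 and 2156 (−1.66 ± 0.20, adjusted p = 0.00207). In both, control mouse 1 was again the lowest of the controls, and the groups did not overlap.

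Regulators that switch such responses off were among those that fell. Dusp1, a phosphatase of MAP kinases, changed by −1.16 ± 0.12 on the log2 scale, Btg2, an antiproliferative factor, by −0.87 ± 0.11, and Zfp36, which destroys cytokine transcripts, by −0.63 ± 0.10. Ier2 changed by −1.07 ± 0.11, Ier3 by −0.72 ± 0.13 and Junb, another AP-1 subunit, by −1.02 ± 0.15. The Junb call was lost when control mouse 3 or IL-4d2 mouse 2 was left out, that of Zfp36 without control mouse 3 or IL-4d2 mouse 1 or 3, and that of Ier3 in each fit except that without control mouse 1. Rgs2, a brake on G protein signalling that was in no list, went from 7372, 7205 and 6998 to 3042, 3105 and 2796. The mice of each group were within a narrow range (−1.27 ± 0.08, adjusted p = 2.97e-05), and 2 other probe sets gave −1.21 and −1.24. A further probe set of Rgs2 gave −0.71 and was not called (adjusted p = 0.514). Not all of the list moved: Jun, Myc and Atf3 are among its 22 genes that were not called. The count of 10 became 6 after scaling to hybridisation controls, 4 after scaling to poly-A controls and 2 with a variance prior that does not vary with the signal. Egr1, Fos and the brightest probe set of Rgs2 were called under each other setting and in each fit with 1 array left out.

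Some of these decreases went further with IL-4d2 than with IL-4. Egr1 had signals of 2660, 2860 and 2357 in the IL-4 mice, all above the 3 IL-4d2 mice, a log2 difference between IL-4d2 and IL-4 of −1.47 ± 0.25 (limma adjusted p = 0.0245). Fos had 3941, 3600 and 3046 in the IL-4 mice, also without overlap (−1.35 ± 0.14, adjusted p = 0.00181). Rgs2 differed by −0.58 ± 0.08 (adjusted p = 0.00836) and Junb by −0.79 ± 0.15 (adjusted p = 0.0474). Fos kept that call in each fit with 1 array left out, Rgs2 lost it without IL-4d2 mouse 3, Junb lost it in each, and Egr1 kept it only without IL-4d2 mouse 1. By contrast Nr4a1 read 949, 875 and 824 with IL-4, overlapping the IL-4d2 mice (0.07 ± 0.19, adjusted p = 0.929). The comparisons of IL-4d2 and of IL-4 with the control virus share their 3 control arrays, whereas the direct difference does not use them. The direct difference was not refitted under other scalings.

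In the promoter windows of the 8 called immediate early genes that matched the table, GAANNTTC was not found. The cAMP response element TGACGTCA was in 2 of the 8 (Dusp1 and Btg2) beside 2.03% of all genes, and the CArG box, the site bound by serum response factor, was in 1 (Zfp36) beside 1.81%. Both were searched on both strands. No match says only that these letters are not in this window.

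Further decreases came from other groups. Cirbp, a cold-inducible RNA-binding protein, had signals of 1220, 1288 and 1236 in control mice and 439, 429 and 448 in IL-4d2 mice. The mice of each group lay close together and the groups far apart (log2 difference −1.47 ± 0.09, adjusted p = 2.97e-05), and the value stayed between −1.49 and −1.45 with any 1 array left out. Cirbp was the only one of 21 cold-inducible and splicing genes to be called. Dbp, a clock output transcription factor, went from 7130, 7187 and 8749 to 5171, 4610 and 4670 (−0.67 ± 0.10, adjusted p = 0.00881). It was the only one of 18 clock genes called, it lost the call without IL-4d2 mouse 2 or 3, and the time of day at which lungs were taken is not given in the labels. S100a6, a calcium-binding protein, changed by −0.71 ± 0.10, Ahnak2, a large scaffold protein, by −0.98 ± 0.12, and Tuba8, an alpha tubulin, by −1.24 ± 0.23 (adjusted p = 0.0451). The Tuba8 call was lost in each fit that left out 1 array, and that of S100a6 without IL-4d2 mouse 1 or 2.

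Other increases were spread over single genes. Npr3, the clearance receptor for natriuretic peptides, went from 1032, 790 and 1218 to 2333, 2392 and 2837, without overlap (log2 difference 1.32 ± 0.15, adjusted p = 0.00175). Its other probe sets gave 0.90 and 0.91 and were not called. Slc5a3, an inositol transporter, rose by 1.07 ± 0.16, and Cdkn1a, the cell cycle inhibitor p21, by 0.79 ± 0.12. The Slc5a3 call was lost when control mouse 1 or any IL-4d2 mouse was left out, and that of Cdkn1a without control mouse 3 or IL-4d2 mouse 2 or 3. Slc7a15 and Lhx1 were called as well, but their control signals, from 5.62 to 10.5, lay at the level of the blank transcript, so no fold is given. Their IL-4d2 signals ran from 49.0 to 80.6. Both calls were lost in each fit with an array left out.

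The genes by which IL-4 responses are usually recognised were not called with IL-4d2 against control virus. Of 25 genes of alternatively activated macrophages none was called by limma in either direction, 0 had an unadjusted p under 0.05 on the higher side and 3 on the lower, and the median was −0.14. With IL-4 against the same controls, 13 of the 25 rose beside 3.24% of all genes, and the median was 0.94. In the direct test 11 of the 25 were lower with IL-4d2 than with IL-4, beside 0.506% of all genes. Arg1, which turns arginine into ornithine and marks these macrophages, had signals of 107, 94.2 and 69.0 in control mice, 101, 78.1 and 28.3 in IL-4d2 mice and 1351, 918 and 717 in IL-4 mice. IL-4d2 and control mice overlapped, and the IL-4 mice stood far above both (IL-4d2 minus IL-4 −3.63 ± 0.35, adjusted p = 0.00150). Mmp12, a macrophage elastase, had 174, 395 and 150 in control mice, 291, 356 and 217 in IL-4d2 mice and 5404, 4386 and 3583 in IL-4 mice, the same arrangement (−3.89 ± 0.30, adjusted p = 0.000361).

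Other genes named by the size of their difference from IL-4 included secreted ribonucleases and chitinase-like proteins. Rnase2a, a ribonuclease of the eosinophil-associated family, read 59.0, 80.9 and 24.1 in control mice, 40.6, 22.03 and 28.4 in IL-4d2 mice and 2363, 3325 and 2639 in IL-4 mice. Control and IL-4d2 mice overlapped (−0.54 ± 0.31, adjusted p = 0.610), and the difference from IL-4 was −5.92 ± 0.31 (adjusted p = 1.62e-05). Chil4, a chitinase-like protein, read 697, 1816 and 270 in control mice, 145, 606 and 288 in IL-4d2 mice and 20940, 3672 and 5574 in IL-4 mice. It was lower than with IL-4 by −4.60 ± 0.72 (adjusted p = 0.0177), and −3.86 without IL-4 mouse 1, where the call was lost, as it was without IL-4 mouse 3 or IL-4d2 mouse 1 or 3. Its relative Chil3 was high in all mice, from 10810 to 21650 in the control and IL-4d2 mice, and differed from IL-4 by −1.36 ± 0.24 (adjusted p = 0.0351), a call lost in each fit with an array left out. Retnla, a resistin-like protein, did not pass that test (−0.86 ± 0.28, adjusted p = 0.231). Ear3, another ribonuclease of the family of Rnase2a, differed from IL-4 by −1.9996 ± 0.22. Its signals of 305, 639 and 415 in IL-4d2 mice lay below all controls, at 696, 1004 and 888, but it was not called against control virus (−0.95 ± 0.22, adjusted p = 0.110).

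**Figure D4:**
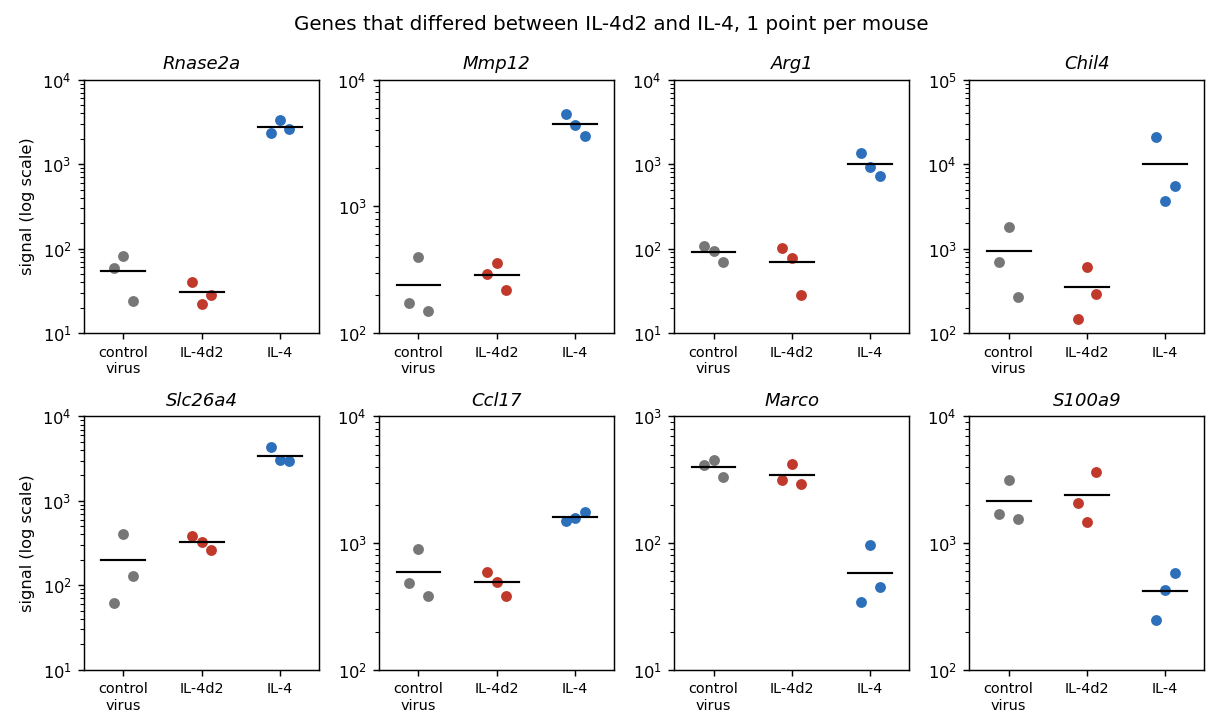
Signals on a log axis for 8 genes called between IL-4d2 and IL-4, with 1 point per mouse in each of 3 groups and a line at the mean. In the first 6 panels the IL-4 mice lie above both other groups, and for Marco and S100a9 they lie below, while control and IL-4d2 mice overlap in all 8 panels.

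Type 2 chemokines and epithelial genes were not called against control virus either, and several were lower than with IL-4. Ccl17, a ligand of CCR4 on Th2 cells, read 487, 901 and 384 in control mice and 593, 492 and 383 in IL-4d2 mice, against 1488, 1580 and 1748 with IL-4. The first 2 groups overlapped, and the difference from IL-4 was −1.70 ± 0.25 (adjusted p = 0.0127), a call kept without IL-4 mouse 1 or IL-4d2 mouse 1. Of the 12 type 2 chemokines 0 were called against control by limma. On the higher side 4 had an unadjusted p under 0.05, beside 6.37% of all genes. The median was 0.38, and 8 of the 12 had a positive difference. In the direct test 4 were lower than with IL-4, beside 0.506% of all genes. These included the eotaxin Ccl24, at −1.95 ± 0.32, which was above the blank transcripts on only 1 of 3 control and 2 of 3 IL-4d2 arrays, with signals of at most 23.6 there, so that the size is uncertain, and Ccl9, at −1.48 ± 0.24. Ccl9 was at 697, 1075 and 590 in control mice and 1760, 1644 and 1371 in IL-4d2 mice without overlap, but was not called (1.04 ± 0.24, adjusted p = 0.106). Pendrin, an anion exchanger of the airway lining encoded by Slc26a4, read 61.8, 403 and 128 in control mice and 388, 323 and 265 in IL-4d2 mice, with overlap through control mouse 2, and 4289, 3071 and 2957 with IL-4 (−3.33 ± 0.45, adjusted p = 0.00820). Il33, an alarmin of epithelium, was not called against control (0.58 ± 0.12, adjusted p = 0.0766) and was lower than with IL-4 by −0.77 ± 0.12 (adjusted p = 0.0185). Slc26a4 lost its call against IL-4 without IL-4d2 mouse 3, and Ccl24, Ccl9 and Il33 each kept theirs in 1 of 6 fits with an array left out. Of 20 goblet cell and mucus genes none was called against control virus by limma, with 2 at an unadjusted p under 0.05, both higher, beside 6.37% of all genes.

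The direct test also found genes that were higher with IL-4d2 than with IL-4 and were not called between IL-4d2 and control virus. Marco, a scavenger receptor of alveolar macrophages, read 411, 450 and 330 in control mice, 316, 418 and 295 in IL-4d2 mice and 34.3, 96.2 and 44.7 in IL-4 mice, a difference from IL-4 of 2.34 ± 0.29 (adjusted p = 0.00545). S100a9, a subunit of the neutrophil protein calprotectin, read 1712, 3151 and 1554 in control mice, 2078, 1458 and 3643 in IL-4d2 mice and 247, 427 and 579 in IL-4 mice (2.45 ± 0.36, adjusted p = 0.0127, lost without IL-4 mouse 2 or IL-4d2 mouse 1 or 3). Its partner S100a8 differed by 2.23 ± 0.42 (adjusted p = 0.0426), a call lost in each fit with an array left out. Pon1, an antioxidant esterase, differed by 1.81 ± 0.16 and Fabp1, a fatty acid carrier, by 1.53 ± 0.22. Fabp1 read 305, 369 and 381.5 in control mice and 158, 167 and 235.5 in IL-4d2 mice, without overlap. It was lower than with control virus by −0.87 ± 0.22 but was not called there (adjusted p = 0.146). In total 66 genes were higher with IL-4d2 than with IL-4 (0.363%) and 92 lower (0.506%). The counts of probe sets, 106 (0.235%) and 138 (0.306%), ran from 12 to 81 and from 34 to 68 with 1 array left out, with both lowest without IL-4d2 mouse 3. Fabp1 also lost its call there.

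Genes of the structural cells of the lung were not called. No gene was called by limma among 29 endothelial, 18 club cell, 23 ciliated cell, 19 alveolar type 2 and 16 alveolar type 1 genes, and those with an unadjusted p under 0.05 numbered 5, 1, 1, 8 and 3. The 8 of alveolar type 2 cells were all higher, beside 6.37% of all genes, and 18 of the 19 had a positive difference. The medians ran from −0.15 for alveolar type 1 genes to 0.23 for alveolar type 2 genes. In the list of smooth muscle and fibroblast genes none of 23 was called, 10 had an unadjusted p under 0.05 on the lower side, and 11 were below all controls in every IL-4d2 mouse beside 9.54% of all genes. The median of that list was −0.31.

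Markers of muscle and fat, tissues that can be cut along with the lung, and of red blood cells varied between mice. The 22 skeletal muscle genes had a median log2 difference of −1.93 with none called by limma and 14 at an unadjusted p under 0.05 on the lower side. Their summed signal was 137428, 21302 and 8044 in control mice and between 3307 and 9956 in IL-4d2 mice, and no gene of the list was at 0 on all arrays. Acta1, the actin of skeletal muscle, read 21390, 2573 and 448 in control mice and 230, 203 and 276 in IL-4d2 mice. Control mouse 1 was far above the rest (−3.56 ± 0.96, adjusted p = 0.173, and −2.13 without it). The summed signal of the 20 heart muscle genes was between 21412 and 58228 in control mice and between 9517 and 30275 in IL-4d2 mice, and that of 16 fat genes between 37078 and 68763 and between 40706 and 49128. Of those 16 fat genes 13 had a negative difference and 7 an unadjusted p under 0.05 on the lower side, beside 6.02% of all genes, with a median of −0.88. The summed signal of 7 red blood cell genes was between 2175 and 2825 in control mice and between 3345 and 4866 in IL-4d2 mice, without overlap. Alas2, the first enzyme of haem synthesis in red cell precursors, read 468, 365 and 699 in control mice and 1411, 840 and 1633 in IL-4d2 mice (1.31 ± 0.26, adjusted p = 0.0559). No fat or red blood cell gene was called by limma, and 3 of the 7 red blood cell genes had an unadjusted p under 0.05 on the higher side. Without control mouse 1, 11 immediate early genes and 10 heat shock genes were called. The part of these tissues in the other differences was not tested.

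**Figure D5:**
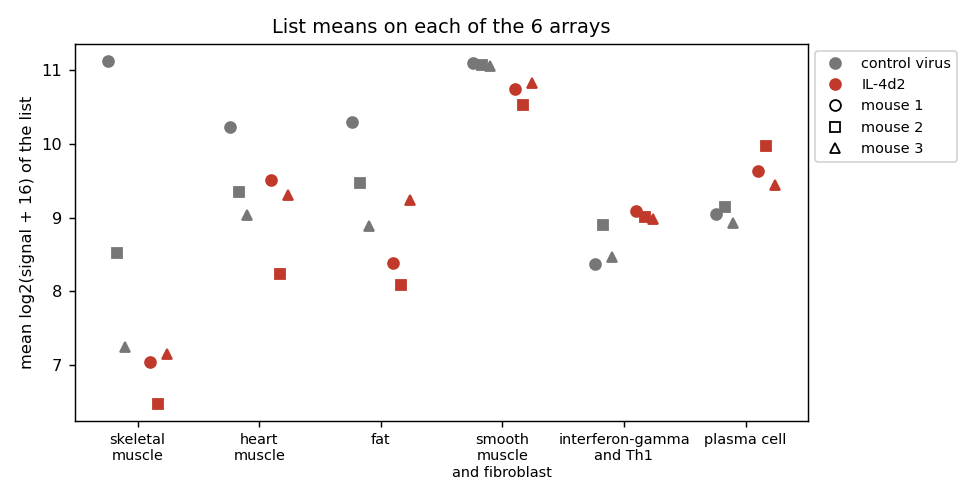
Mean log2(signal + 16) over the genes of 6 lists on each of the 6 arrays, grey for control virus and red for IL-4d2, with the mouse number as the marker shape. Control mouse 1 is highest for skeletal muscle genes at 11.12, and all 3 IL-4d2 mice are above all controls for plasma cell genes.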

How the data were processed

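Values are signal intensity on a linear scale, as deposited by the authors, 1 per probe set and array. Per the submitters' processing notes, Affymetrix Expression Console 2.0, MAS5 and GCOS were used. The trimmed mean was 500.002 on each array and medians ran from 156 to 171, so each array had been scaled by 1 factor, which hides any shift common to all genes. Per the labels' protocols, 200 ng of total RNA was labelled after oligo-dT priming.

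Signals were transformed to log2(signal + 16), and fold changes on that scale understate changes of dim genes. All 9 arrays entered 1 fit with a coefficient per group (limma 3.58.1 in R 4.3.3, lmFit and eBayes with trend, 6 residual degrees of freedom), without a filter on dim probe sets. Two-sided p-values were adjusted (Benjamini-Hochberg) over 45037 probe sets. The fit was tested on simulated data. Errors after log2 differences are SEs. Signals are given in the order of mice 1 to 3. The number of arrays limits the precision.

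The platform annotation gave 1 symbol to 34945 of the probe sets tested, several to 932 and none to 9160. The probe set with the highest mean log2 signal stood for its gene, so a gene counted as not called may have another probe set that was called. The 46 gene lists held 956 entries, of which 859 were tested and 97 were not analysed here. Members, lists and comparisons were chosen with earlier results of these data known. The rule for named genes took Il4, Il4ra and Stat6, the 12 largest increases and 12 largest decreases that were called without overlap of the groups, from each list at most 4 called members (or the 2 brightest where fewer than 2 were called), and the 8 largest differences each way from IL-4. For the largest changes, RIKEN and similar symbols and the segments of antigen receptors were skipped. Further genes named were list members or called genes chosen after their values were seen. Promoters came from RefSeq (GRCm38.p6). Alternatives were other pseudocounts, a filter, other normalizations and variance priors, array weights, a replicate block, other probe sets and leaving out each array. For IL-4d2 against IL-4 the only alternative was leaving out arrays.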

Additional observations from a re-analysis of the deposited data

Results flagged for a closer look

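Each gene below is listed because the direct test between the IL-4d2 and IL-4 mice (limma, adjusted p under 0.05) found a difference. The Il4 signal itself was higher in all IL-4d2 mice than in all IL-4 mice, and its part in these differences was not tested. Values are log2 differences, IL-4d2 minus IL-4, with 3 mice in each group.

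Matrix genes that were lower with IL-4d2 were Eln (−1.09) and Ltbp2 (−0.66). Immediate early genes and Rgs2 were lower too: Egr1 (−1.47), Fos (−1.35), Rgs2 (−0.58) and Junb (−0.79). Lower genes of macrophages, eosinophil-associated ribonucleases, chemokines and epithelium were Arg1 (−3.63), Rnase2a (−5.92), Mmp12 (−3.89), Chil4 (−4.60), Chil3 (−1.36), Ccl17 (−1.70), Ccl24 (−1.95), Ccl9 (−1.48), Slc26a4 (−3.33), Fbp1 (−2.86), Corin (−2.16), Ear3 (−1.9996), Clec7a (−1.56) and Il33 (−0.77). Corin is a serine protease that processes natriuretic peptides, Fbp1 an enzyme of gluconeogenesis and Clec7a the fungal receptor dectin-1.

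Genes that were higher with IL-4d2 than with IL-4 were Marco (2.34), Fabp1 (1.53), S100a8 (2.23), S100a9 (2.45), Pon1 (1.81), Azgp1 (1.39), Gdpd2 (1.77) and Smim27 (2.27). For Gdpd2 the IL-4d2 signals were 162, 199 and 143 and the IL-4 signals 44.4, 40.1 and 29.6, without overlap. The Gdpd2 call was lost in each of 6 fits with an array left out, and those of Corin, Clec7a, Azgp1 and Smim27 were each kept in 1 of 6.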

How the results depend on the processing

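Of 67 named genes called against control virus, 39 kept the call in every fit without 1 array and 15 under every other setting too, and all 1137 alternative fits of those genes had the same direction. The 15 were Il4, Jchain, Igha, Ltbp2, Hspa1a, Hspa1b, Hsph1, Dnajb1, Dnaja1, Cacybp, Ahsa2, Egr1, Fos, Rgs2 and Cirbp. These counts are for the brightest probe set of each gene, and a dimmer one of Rgs2 was not called. Signals near those of blank transcripts limit dim genes.

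Against 156 probe sets higher and 58 lower with IL-4d2 than with control virus, the counts were 81 and 15 when scaled to hybridisation controls, which moved the median of all genes to 0.05, and 43 and 12 with eBayes without a trend. The lower count was 93 with a filter on dim probe sets, 16 when scaled to poly-A controls, which moved the median of all genes to 0.25, and 104 with array weights. Leaving out 1 array gave 80 to 224 higher and 20 to 60 lower. For IL-4d2 against IL-4, with 106 higher and 138 lower, it gave 12 to 81 and 34 to 68. The cause of these changes in counts was not tested. IL-4d2 against IL-4 was not refitted under other scalings, so its calls there are not known. Poly-A controls had mean log2 signals of 11.14, 11.11 and 10.50 in IL-4 mice and 9.72, 10.015 and 9.88 in IL-4d2 mice. Same-numbered mice did not deviate together (correlations 0.018, 0.008 and −0.027), so numbers were taken as names. With the replicate block 153 probe sets were higher and 41 lower.

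Changes of direction against control virus affected genes that were not called. Retnla was 0.013 when scaled to hybridisation controls, 0.23 when scaled to poly-A controls and 0.045 with array weights. Scaled to poly-A controls, Ccl17 was 0.072, Fbp1 0.16 and Marco 0.056. Without 1 array, Retnla ran from −0.41 to 0.33, Ccl17 from −0.45 to 0.15, Chil3 from −0.14 to 0.36, Clec7a from −0.052 to 0.51, Fbp1 from −0.22 to 0.074, Arg1 from −0.70 to 0.0039, S100a8 from −0.17 to 0.56 and S100a9 from −0.22 to 0.45. Of other probe sets, 1 of Ighm gave −0.049 and 1 of Hspa5 −0.082.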
